A study of Mus musculus with 4 samples.

Results

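Sugar, organic ion and nucleoside carriers are the membrane proteins that move glucose, lactate, bile acids, organic anions and cations, ascorbate, fatty acids and nucleosides across cell membranes. They were taken here by gene name: every probe named for a member of the Slc2, Slc5, Slc10, Slc13, Slc15, Slc16, Slc17, Slc22, Slc23, Slc27, Slc28, Slc29, Slc47 or Slco family. The rule found 117 genes with 145 probes, of 31875 genes or transcripts and 39395 probes on the array, and used no measured value. Of the 117 genes, 98 were tested, because both arrays of at least 1 of the groups read them well above background, and 19 were not.

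The samples were kidneys of mouse embryos at E15.5, on a hybrid background of the 129 and C57BL/6 strains, carrying the Six2GFP reporter. Six2 is the transcription factor that marks the nephron progenitors of the cap mesenchyme, so the reporter lights those cells. Cells were sorted by fluorescence into Six2GFP-positive and Six2GFP-negative fractions, and RNA of each was put on a 1-colour Agilent array, with 2 arrays per fraction and 4 in all. The negative fraction holds every other cell of the kidney, so it is a mixture, and both fractions came from kidneys of the reporter strain. The labels do not say whether the 2 arrays of a group came from separate litters or animals, so the p-values measure only the spread between these arrays. In such bulk RNA, fewer cells of a type and less RNA per cell cannot be told apart.

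In the kidney many of these carriers belong to the proximal tubule, which takes back glucose, lactate, citrate, sulphate, ascorbate and urate from the filtrate and secretes organic anions and cations into it. Uptake on the blood side and exit on the luminal side use different families: Slc22 carriers bring organic ions into the tubule cell, and Slc47 carriers pass cations on to the urine. Facilitated glucose carriers of the Slc2 family and monocarboxylate carriers of the Slc16 family also serve cells outside the tubule, where they supply glycolysis and export its lactate.

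Several results turn on which stretch of a gene a probe reads, so the 60-base probes of the genes concerned are shown first, in the order described below and in lower case. Capitals mark every run of at least 16 bases that a probe of another gene name on the array also holds. Probe positions are those of the file, on mouse build mm9. The 2 Slc5a7 probes lie at chr17:54413269-54413328 and chr17:54413708-54413767. Those of Slc17a4 lie at chr13:23989758-23989817 and chr13:23998528-23998587, those of Slc16a5 at chr11:115335616-115335675 and chr11:115324039-115324098, those of Slc17a8 at chr10:89046159-89046218 and chr10:89037630-89037689, and those of Slc10a1 at chr12:82056539-82056598 and chr12:82061470-82061529.
Slc5a7, brighter probe: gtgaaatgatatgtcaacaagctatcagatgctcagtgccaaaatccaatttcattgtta
Slc5a7, dimmer probe: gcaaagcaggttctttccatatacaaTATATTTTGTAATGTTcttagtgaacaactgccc
Slc17a4, brighter probe: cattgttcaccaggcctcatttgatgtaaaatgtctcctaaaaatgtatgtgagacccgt
Slc17a4, dimmer probe: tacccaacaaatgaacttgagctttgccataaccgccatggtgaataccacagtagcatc
Slc16a5, brighter probe: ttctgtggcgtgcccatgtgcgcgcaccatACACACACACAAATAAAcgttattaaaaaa
Slc16a5, dimmer probe: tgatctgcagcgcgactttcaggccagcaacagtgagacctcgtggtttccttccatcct
Slc17a8, brighter probe: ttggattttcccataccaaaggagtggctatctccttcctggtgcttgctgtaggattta
Slc17a8, dimmer probe: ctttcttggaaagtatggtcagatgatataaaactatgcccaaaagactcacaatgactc
Slc10a1, brighter probe: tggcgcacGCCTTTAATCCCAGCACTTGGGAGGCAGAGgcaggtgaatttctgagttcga
Slc10a1, dimmer probe: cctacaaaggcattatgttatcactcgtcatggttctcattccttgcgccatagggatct

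More carriers were lower than higher in the Six2GFP-positive cells. Of the 98 tested, 41 were lower, 11 were higher and 46 did not pass the threshold, an adjusted p under 0.05 from limma's moderated test with Benjamini-Hochberg adjustment over all 24150 genes tested. The lower share was 41.8% of the carriers against 18.3% of all genes tested, and the higher share 11.2% against 20.7%. Of the 41 lower, 7 were well above background on neither positive array and so entered the test through the negative group alone. Of the 11 higher, 1 entered through the positive group alone. With only probes well above background on all 4 arrays kept, 83 carriers were tested. There 37.3% were lower against 16.4% of all genes, and 13.3% were higher against 23.9%. By at least 2-fold, 37 carriers were lower, 37.8% against 12.7% of all genes, and 3 were higher, 3.06% against 3.63%. The median log2 difference, positive minus negative, was -0.90 over the carriers and 0.15 over all genes. Leaving out positive array 2 moved the carriers' median to -0.45, and background correction by normexp moved it to -0.31. The 11 higher calls shrank to between 4 and 6 when any 1 array was left out, 4.08% to 6.12% of the carriers, while the share of all genes fell to between 5.47% and 8.96%. Without the filter on dim probes the higher shares were 5.98% and 8.21%. No carrier call changed direction under any alternative tried.

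**Figure D1:**
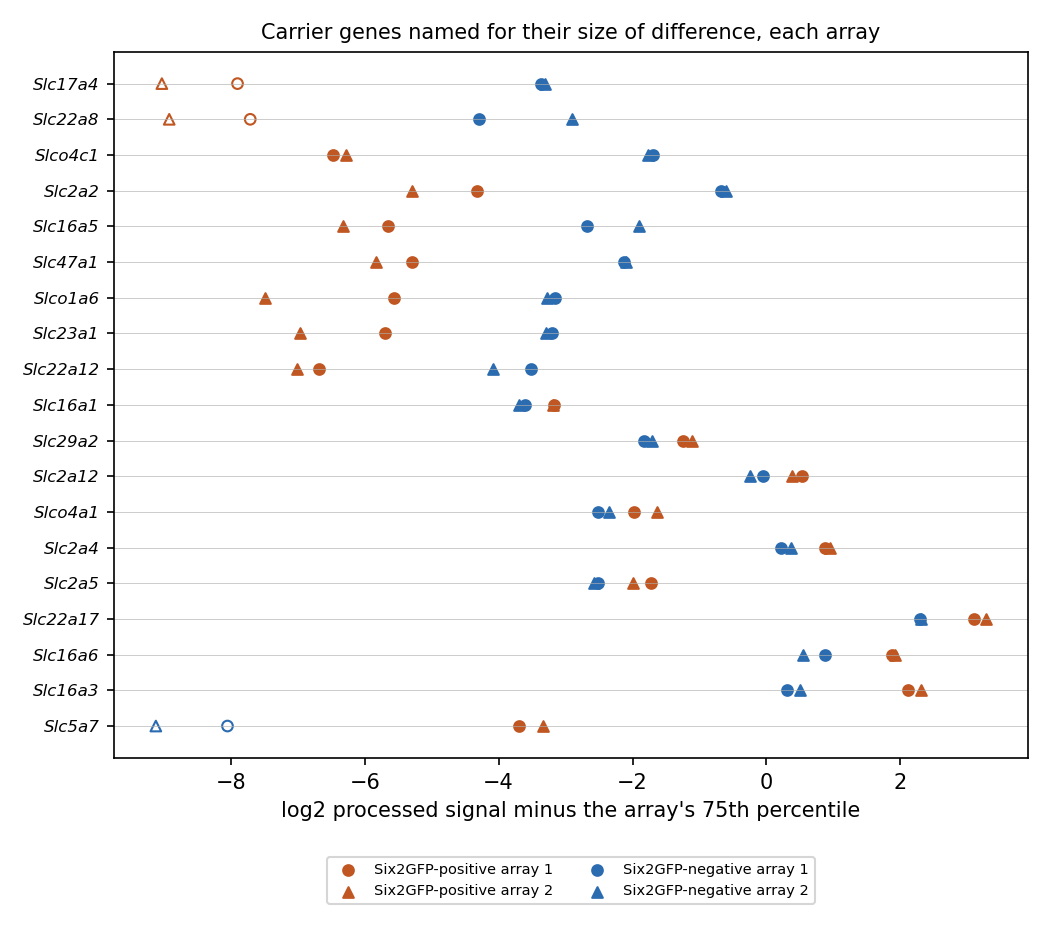
Level of 19 carrier genes on each array, as log2 processed signal minus that array's 75th percentile. Orange marks are Six2GFP-positive arrays and blue marks Six2GFP-negative arrays; circles are array 1 and triangles array 2, and open marks are groups in which neither array was well above background. The fractions do not overlap in any of these genes. They were picked as the largest called differences, so the lack of overlap is no separate result. Neither positive array read Slc17a4 or Slc22a8 well above background, and neither negative array read Slc5a7. Levels are comparable along a row only.

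Values below are levels on 1 scale: log2 of the processed signal minus the array's own 75th percentile, given for positive arrays 1 and 2 and then negative arrays 1 and 2. Differences are positive minus negative, with the fit's standard error, over n = 2 arrays per group. A level cannot be set against that of another gene, since probes differ in how well they bind. Where neither array of a group was well above background, only a bound holds, and the fold is given as at least the brighter group's mean over the dimmer group's floor. The adjusted p beside a bound belongs to the fitted difference, which uses the unread values, so it does not test the bound. Counts per family stand beside shares of 18.3% lower and 20.7% higher over all genes tested. Families are small, so these counts describe their members and were not tested as a family trait.

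Among the glucose and urate carriers of the Slc2 family, 4 of 11 genes tested were lower and 3 were higher. Slc2a2, the low-affinity glucose carrier of the tubule's blood side, stood at -4.32 and -5.29 in the positive cells and at -0.68 and -0.61 in the negative cells. The negative arrays lay close together and far above both positive arrays, a difference of -4.16 ± 0.36 or 17.9-fold (adjusted p = 0.00339 by limma). Slc2a3, a high-affinity glucose carrier best known from neurons, read -2.91 and -3.38 against -1.37 and -1.33, again without overlap (-1.79 ± 0.19, adjusted p = 0.00552 by limma). Slc2a1, the widespread basal glucose carrier, was at 2.09 and 2.31 against 1.98 and 2.06. Its positive arrays were above its negative arrays by 0.18 ± 0.12, which did not pass the test (adjusted p = 0.278 by limma).

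The Slc2 genes that rose did so by little. Slc2a5, the fructose carrier, read -1.73 and -1.99 in the positive cells against -2.52 and -2.57 (0.68 ± 0.12, adjusted p = 0.0216 by limma). The insulin-responsive carrier Slc2a4 read 0.88 and 0.95 against 0.22 and 0.37 (0.63 ± 0.10, adjusted p = 0.016 by limma). Slc2a12, another facilitated glucose carrier, read 0.53 and 0.38 against -0.05 and -0.25 (0.61 ± 0.12, adjusted p = 0.0267 by limma). None of the 3 overlapped between groups, but each call was lost without some single arrays: that of Slc2a12 when any 1 of the 4 was left out (highest adjusted p 0.115), that of Slc2a4 without positive array 1, positive array 2 or negative array 1 (highest 0.0874), and that of Slc2a5 without positive array 1, negative array 1 or negative array 2 (highest 0.088).

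The Slc5 family couples uptake to sodium. Of 11 tested, 2 were lower and 1 was higher, and the lower share was close to the 18.3% of all genes. Slc5a1, a high-affinity sodium-glucose carrier of gut and late proximal tubule, was not well above background in the positive cells (-7.88 and -7.72) and read -4.85 and -4.86 in the negative cells. It was therefore at least 4.26-fold lower in the positive cells (adjusted p = 0.000567 by limma). Slc5a2, the sodium-glucose carrier that reclaims most filtered glucose, read -5.72 and -5.40 against -3.38 and -3.30, a difference of -2.22 ± 0.14 or 4.66-fold (adjusted p = 0.00178 by limma).

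Slc5a7 went the other way and differed more than any other higher carrier. It encodes the high-affinity choline carrier, known from cholinergic neurons, where it supplies choline for acetylcholine. Its brighter probe read -3.70 and -3.34 in the positive cells and -8.05 and -9.12, not well above background, in the negative cells. The positive cells were at least 13.4-fold higher (adjusted p = 0.00299 by limma). The dimmer probe, whose 60 bases share no position with the brighter one on mm9, read -4.86 and -4.26 against -9.46 and -8.66, at least 6.54-fold higher. The call held under each alternative in which the gene was tested. Of 5 neural markers tested, 3 were lower in the positive cells and 1 was higher, where 18.3% and 20.7% of all genes were. Stmn2, not well above background in the positive cells, was among the lower. The higher one was Elavl4, a neuronal RNA-binding protein, at 1.74 and 1.67 against -0.29 and -0.30. The summed linear level of the list was 3.86 and 3.70 against 1.88 and 1.91, in multiples of the array's 75th percentile signal. Elavl4 alone made up most of that sum in the positive cells, so the sum does not give the direction of the other markers. The part of neural RNA in the Slc5a7 level was not tested.

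Monocarboxylate carriers of the Slc16 family went both ways, with 7 of 14 lower, 3 higher and 4 not past the threshold. The higher share was close to the 20.7% of all genes. Slc16a3, the carrier by which glycolytic cells export lactate, read 2.12 and 2.31 in the positive cells and 0.31 and 0.50 in the negative cells. Its positive arrays were 3.52-fold higher (1.81 ± 0.12, adjusted p = 0.002 by limma), and a second, largely overlapping probe gave 1.79 ± 0.11. Slc16a6, a ketone body exporter of liver, read 1.87 and 1.92 against 0.87 and 0.54 (1.19 ± 0.14, adjusted p = 0.00805 by limma). Slc16a1, the widespread lactate and pyruvate carrier, read -3.18 and -3.19 against -3.61 and -3.69. That gap of 0.47 ± 0.09 passed (adjusted p = 0.0228 by limma) but was lost when any 1 of the 4 arrays was left out (highest adjusted p 0.112).

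Among the lower genes of the family, Slc16a5, a less studied member, read -5.65 and -6.32 against -2.68 and -1.90 with its brighter probe (-3.70 ± 0.37, adjusted p = 0.0052 by limma). The other Slc16a5 probe differed by only -0.72 ± 0.15, in the same direction. Printed above, the brighter probe holds a stretch, beginning with alternating a and c, that 2 probes of other names share, and the dimmer one holds no shared run.

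**Figure D2:**
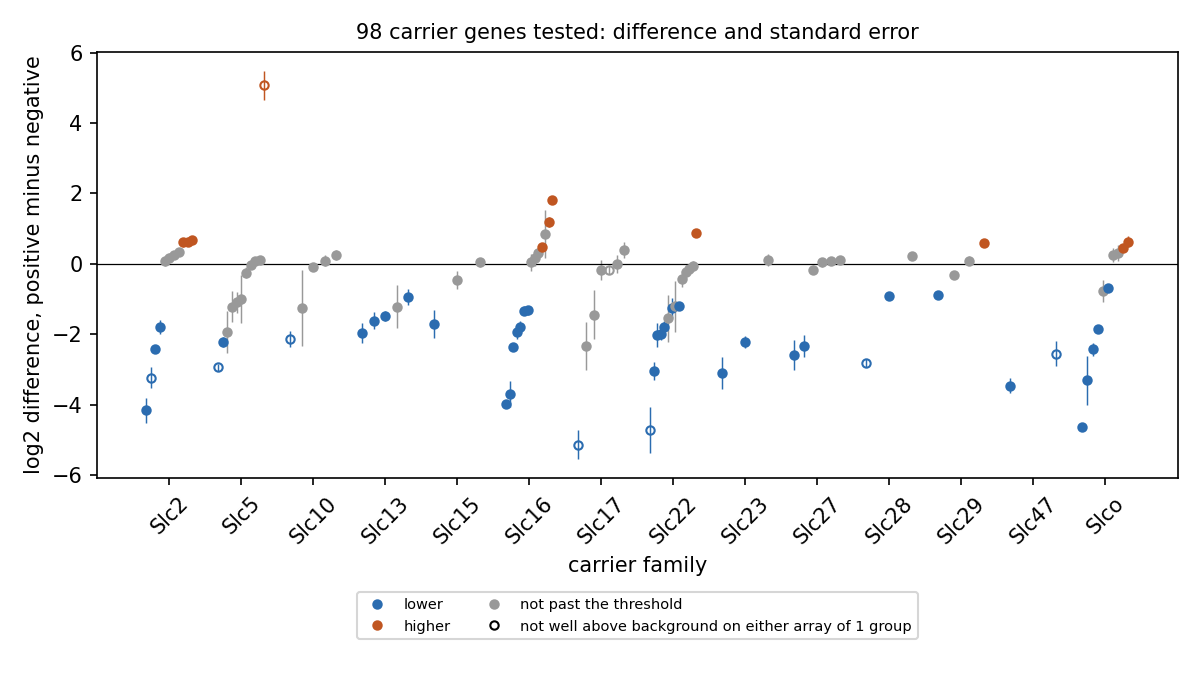
Log2 difference, positive minus negative, of the 98 carrier genes tested, by family, with the fit's standard error as the bar. Blue genes were lower, orange genes higher and grey genes not past the threshold; open marks were not well above background on either array of 1 group, so the fitted value there is no bound. Both tested Slc47 genes lie below 0 and Slc5a7 stands alone at the top.

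Carriers that handle organic anions and cations were among those that fell most. Of 14 Slc22 genes tested, 7 were lower and 1 was higher. Slc22a8, which takes up organic anions on the tubule's blood side, was not well above background in the positive cells (-7.71 and -8.92) and read -4.30 and -2.91 in the negative cells. It was at least 10.2-fold lower (adjusted p = 0.012 by limma). Slc22a6, the organic anion carrier next to it on mouse chromosome 19, read -2.44 and -3.30 against -1.0 and -0.68, a 4.08-fold difference (-2.03 ± 0.34, adjusted p = 0.0179 by limma). That call was lost without either negative array (adjusted p = 0.0637 and 0.0832).

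Slc22a12, the luminal urate exchanger, read -6.68 and -7.01 in the positive cells, where 1 of 2 arrays was well above background, and -3.51 and -4.09 in the negative cells (-3.04 ± 0.25, adjusted p = 0.00315 by limma). Its probe shares a run of 16 bases or more with 2 probes of predicted genes, whose transcripts it could also bind. Slc22a15, a carrier of cations and zwitterions, gave -1.20 ± 0.10 with its brighter probe (adjusted p = 0.00307 by limma) and -0.12 ± 0.25 with the other.

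Slc22a2, the organic cation carrier of the blood side, did not pass. Positive array 1 read -4.19, close to the negative arrays at -3.95 and -4.02, and positive array 2 read -6.19. The difference was -1.20 ± 0.72 (adjusted p = 0.25 by limma) and -2.20 without positive array 1 (adjusted p = 0.00474), so 1 array decided the call. Slc22a17, the receptor for lipocalin-2 and the only Slc22 gene that rose, read 3.1 and 3.28 against 2.29 and 2.31 (0.89 ± 0.11, adjusted p = 0.00772 by limma). 

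Both Slc47 genes, which export cations into the urine, were lower. Slc47a1 read -5.29 and -5.83 against -2.12 and -2.09, 11.0-fold lower (-3.46 ± 0.21, adjusted p = 0.00153 by limma). Among 10 Slco genes tested, 5 were lower and 2 were higher. Slco4c1, an organic anion carrier that handles thyroid hormone and digoxin in kidney, read -6.47 and -6.28 against -1.69 and -1.77. Its groups lay 25.0-fold apart with little spread inside each (-4.64 ± 0.11, adjusted p = 0.000499 by limma). Slco1a6, an organic anion carrier of kidney, read -5.56 and -7.49 against -3.16 and -3.28, with 1 of the 2 positive arrays well above background (-3.31 ± 0.69, adjusted p = 0.03 by limma). Without either negative array its call was lost (adjusted p = 0.109 and 0.107). Slco4a1, a thyroid hormone carrier, read -1.98 and -1.63 against -2.52 and -2.35 (0.63 ± 0.16, adjusted p = 0.0475 by limma), a call lost when any 1 array was left out (highest adjusted p 0.151).

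In the Slc17 family, 1 of 7 genes tested was lower, a share no larger than the 18.3% of all genes. Slc17a4, an organic anion carrier, was not well above background in the positive cells (-7.90 and -9.03) and read -3.36 and -3.31 in the negative cells, at least 12.2-fold apart (adjusted p = 0.00291 by limma). The dimmer Slc17a4 probe, also below background in the positive cells, read -6.93 and -6.69 in the negative cells and gave a bound of at least 1.10-fold. Slc17a8, a vesicular glutamate carrier, was chosen after its values were seen because its probes differ in their call. Its brighter probe read -4.13 and -4.02 against -3.73 and -4.42, with overlapping groups, while the dimmer was below background in the positive cells and at -5.39 and -5.67 in the negative cells, at least 2.67-fold lower. The counts here use the brighter probe, so Slc17a8 is not among the lower genes.

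Tested carriers of the Slc13, Slc15, Slc23 and Slc10 families were lower or not past the threshold, and none was higher. In the Slc13 family 4 of 5 were lower. Slc13a1, the sulphate carrier, read -6.41 and -7.19 against -4.84 and -4.82, with 1 of the 2 positive arrays well above background (-1.96 ± 0.29, adjusted p = 0.0136 by limma). In the Slc15 family 1 of 3 was lower: Slc15a2, which takes up di- and tripeptides, at -3.20 and -4.25 against -1.94 and -2.10 (-1.71 ± 0.39, adjusted p = 0.0359 by limma). Both calls were lost without either negative array, with adjusted p up to 0.0703 for Slc13a1 and 0.125 for Slc15a2.

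Of the ascorbate carriers, Slc23a1, which reclaims vitamin C in the tubule, read -5.70 and -6.96 against -3.20 and -3.29. Only 1 of the 2 positive arrays was well above background, so the difference rests in part on an unread value (-3.09 ± 0.46, adjusted p = 0.0138 by limma), a call lost without either negative array (adjusted p = 0.0675 and 0.0695). Slc23a2, which serves most other tissues, read -3.48 and -3.45 against -3.37 and -3.80. Those groups overlapped (0.12 ± 0.17, adjusted p = 0.607 by limma). Slc10a2, the sodium-coupled bile acid carrier of ileum and kidney, was below background in the positive cells and read -6.44 and -6.96 in the negative cells. It was at least 1.18-fold lower, a bound that was not itself tested (adjusted p of the fitted difference = 0.00534 by limma). Its call was lost with normexp background correction (adjusted p = 0.297, the highest of a range from 0.00125).

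Slc10a1, the bile acid carrier of liver, was chosen after its values were seen, since its probes read so differently. That probe read 7.76 and 7.88 in the positive cells and 7.72 and 7.42 in the negative cells, a difference of 0.25 ± 0.14 (adjusted p = 0.229 by limma). Parts of the capitals in its brighter probe, printed above, are shared with probes of 7 other gene names, and the file pairs the probe with 4 RefSeq transcripts. That shared stretch is of the kind found in B1, a short interspersed repeat spread through mouse transcripts, so the reading cannot be assigned to Slc10a1 alone. The other Slc10a1 probe, with no shared run, was not well above background on any array. Of the 98 genes tested, 17 were represented by a probe with such a shared run, among them Slc16a1, Slc16a5, Slc22a2, Slc22a12 and Slc28a2.

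Nucleoside carriers went both ways. In the sodium-coupled Slc28 family, 2 of 3 were lower. Slc28a2, which takes up purine nucleosides, was below background in the positive cells and read -6.24 and -6.23 in the negative cells. It was at least 1.64-fold lower, a bound that was not itself tested (adjusted p of the fitted difference = 0.000661 by limma). Its probe shares a run with a probe of the predicted gene Gm14085, and the call was lost with normexp background correction (adjusted p = 0.0763, the highest of a range from 0.000218). Slc28a3, of broad specificity, read -5.19 and -5.12 against -4.20 and -4.29, without overlap, and fell by 0.91 on the log2 scale.

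Of 4 equilibrative carriers, 1 was lower and 1 was higher. Slc29a3, the carrier of lysosomes and mitochondria, read -3.55 and -3.59 against -2.63 and -2.74 (-0.88 ± 0.09, adjusted p = 0.00554 by limma). Slc29a2, an equilibrative carrier of the plasma membrane, read -1.24 and -1.11 against -1.83 and -1.71 (0.60 ± 0.10, adjusted p = 0.0189 by limma). The Slc29a2 call was lost when any 1 array was left out (highest adjusted p 0.0959). Slc29a1, the main equilibrative carrier of many cells, read 0.58 and 0.39 against 0.88 and 0.73 and did not pass (-0.32 ± 0.12, adjusted p = 0.1 by limma). It passed with an intensity trend and robust variance (adjusted p = 0.0485) and with normexp followed by quantile normalization (0.0372). Of 6 fatty acid carriers of the Slc27 family, 2 were lower. Slc27a2, which also activates very long chain fatty acids, read -2.65 and -3.62 against -0.87 and -0.21 (-2.59 ± 0.42, adjusted p = 0.0174 by limma), a call lost without either negative array (adjusted p = 0.0508 and 0.0752).

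Some carriers were read in the negative cells alone. On both negative arrays and neither positive array, 8 carriers were well above background, 8.16% of those tested against 3.61% of all genes. They were Slc17a4, Slc22a8, Slc2a9, Slc5a1, Slc28a2, Slc47a2, Slc10a2 and Slc17a6, and all but Slc17a6 were called lower. These 8 entered the test through the negative group alone. That filter leaves little room for another direction, so the direction of these calls is no separate result. Slc5a7 was the only carrier with the opposite pattern. Of the 19 carriers not tested, 12 were well above background on no array, 5 on 1 negative array and 2 on 1 positive array. Among those read on 1 array were Slc22a3 and Slc22a7, organic ion carriers.

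The 2 positive arrays differed from each other in the carriers. Positive array 1 was above positive array 2 by over 0.5 log2 in 28 of the 98, 28.6% against 6.07% of all genes. The opposite held for 0 carriers, and its share over all genes was not counted. In 4 of those 28 neither positive array was well above background and in 5 only 1 was, so those gaps are not measured on both sides. Of the 83 carriers well above background on both positive arrays, a comparison added after seeing the data, 19 had such a gap, 22.9% against 4.15% of all genes read that way. Of these 19, 9 were called lower, 10 did not pass and 0 were called higher. The largest gaps among them, 1.68 to 2.00 log2 units, were those of Slc22a2, Slc17a1, Slc22a19 and Slc13a3, chosen after their values were seen, and none of the 4 was called.

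Proximal tubule markers outside these families moved the same way. Of 12, 10 were lower in the positive cells and none was higher, where 18.3% and 20.7% of all genes were lower and higher. None of the 12 was below background in either group. Their summed linear level, in multiples of the array's 75th percentile signal, came to 4.70 and 3.40 for the positive cells and to 32.6 and 37.4 for the negative cells. Positive array 1 was above array 2 in 11 of the 12, by a median of 0.54. The 7 markers of loop of Henle and distal tubule were all higher on positive array 1, by a median of 1.22; their summed level was 0.79 and 0.323 against 3.33 and 3.39, and 2 of the 7 were called lower. The same array was higher in 9 of 9 macrophage and leukocyte markers, by a median of 0.54, and in 8 of 8 ureteric bud and collecting duct markers, by a median of 0.36. Other lists differed: it was higher in 5 of 8 early nephron, 5 of 7 podocyte, 4 of 8 stroma and 4 of 8 endothelium markers. It was higher in 4 of 9 nephron progenitor, 2 of 5 neural and 0 of 6 erythroid markers, the last with a median of -0.32. Over all genes the median gap was 0.01. In each of those macrophage and leukocyte markers negative array 1 was also above negative array 2, by 0.09 to 1.04. The part of RNA from tubule or other cells in the carrier differences and in the gap between arrays was not tested.

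**Figure D3:**
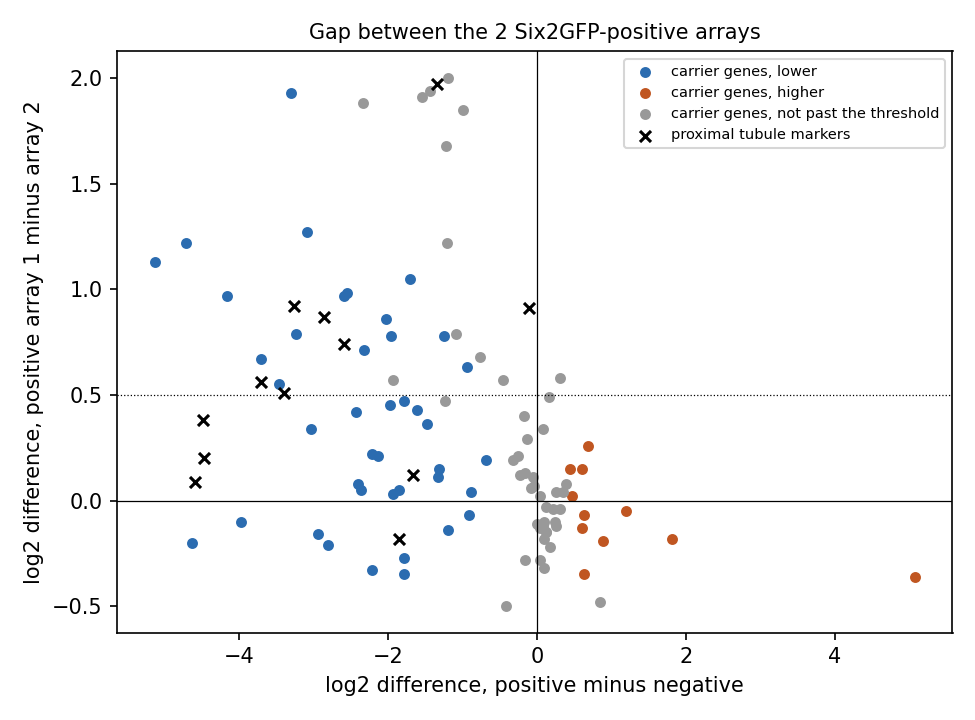
For each of the 98 carriers tested, the difference between the groups (horizontal axis) and the difference between the 2 positive arrays (vertical axis), both in log2 units; crosses are 12 proximal tubule markers outside these families. The dotted line is at 0.5: 28 carriers lie above it, 9 of them with 1 or both positive arrays not well above background, and none was called higher.

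Markers of the sort itself went with the titles. Six2 read 5.58 and 5.74 in the positive cells against -0.17 and -0.15 in the negative cells (5.82 ± 0.10, adjusted p = 0.000499 by limma), and 8 of 9 nephron progenitor markers were higher. Lower in the positive cells were 8 of 8 early nephron, 6 of 7 podocyte, 8 of 8 ureteric bud, 7 of 8 stroma, 7 of 8 endothelium, 5 of 6 erythroid and 3 of 9 macrophage and leukocyte markers. Over all genes tested, 18.3% were lower and 20.7% were higher. Between 72.5% and 79.1% of spots on an array were well above background and 0 were saturated. The small number of arrays limits the precision.

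Genes that work with the carriers were mostly lower as well. Of 23 partners and regulators, 14 were lower and 1 was higher, 60.9% and 4.35% against 18.3% and 20.7% of all genes. The median difference was -1.42, against 0.15 over all genes. Hnf4a, a transcription factor of proximal tubule and liver, read -1.13 and -1.22 against 3.25 and 3.59 (-4.59 ± 0.15, adjusted p = 0.000553 by limma). Its groups did not overlap. The one that rose, Abcb1b, a multidrug efflux pump, read -4.73 and -4.84 against -5.80 and -5.75 (0.98 ± 0.09, adjusted p = 0.00414 by limma).

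Chaperones of the lactate carriers parted. Emb, which escorts monocarboxylate carriers to the membrane, read -0.94 and -0.80 against 1.01 and 1.33, 4.11-fold lower. Bsg, the more widespread chaperone of Slc16a1 and Slc16a3, read 1.83 and 1.62 against 1.83 and 1.77, with overlapping groups (-0.08 ± 0.11, adjusted p = 0.596 by limma). Hif1a, the hypoxia factor, read 0.80 and 0.87 against 0.50 and 0.56 and did not pass (0.31 ± 0.09, adjusted p = 0.0581 by limma). Txnip, which limits glucose uptake, also did not pass (0.16 ± 0.12). These 4 genes were chosen after their values were seen.

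**Figure D4:**
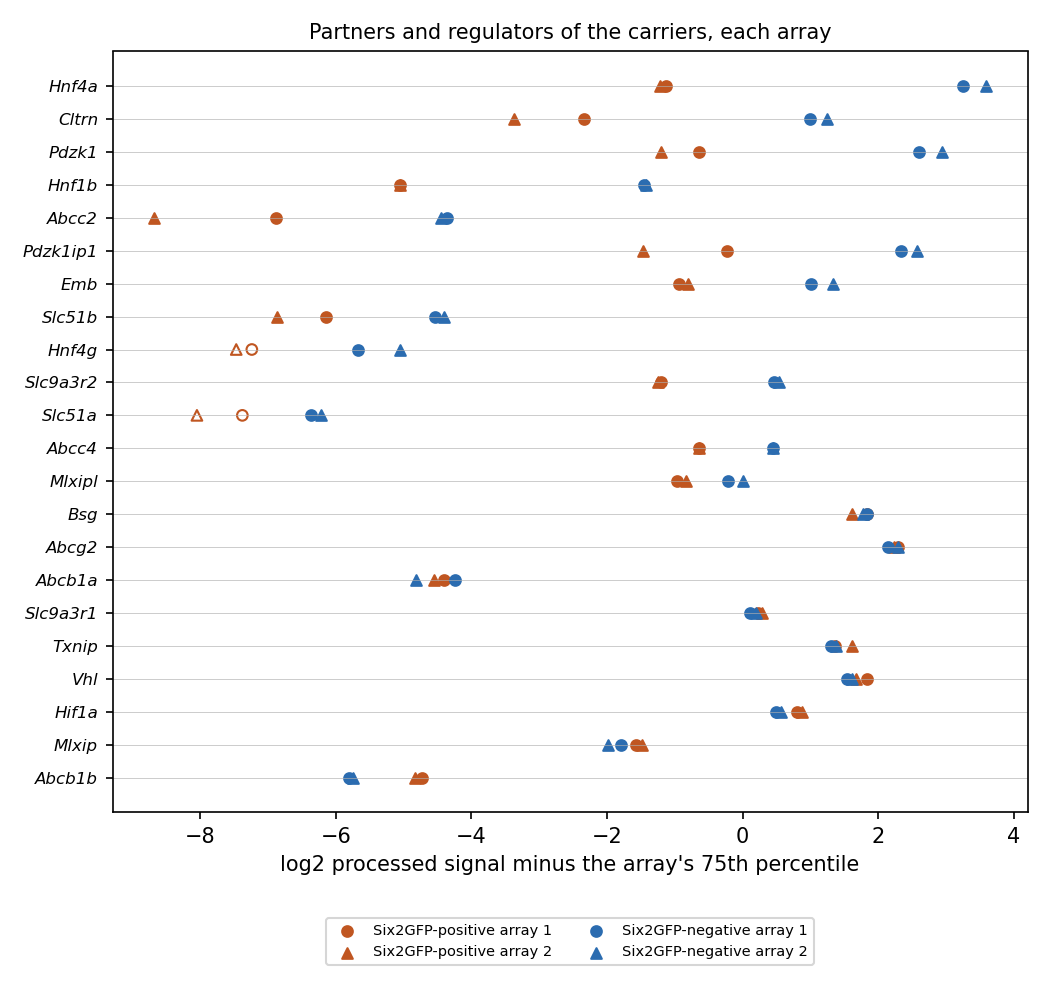
Level of 22 of the partners and regulators on each array, as log2 processed signal minus that array's 75th percentile, ordered by difference. Orange marks are Six2GFP-positive and blue marks Six2GFP-negative arrays; open marks are groups not well above background on either array. The upper 13 genes were lower in the positive cells, with Hnf4a at the top, and Abcb1b at the bottom was higher.

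Of 15 genes of sugar and lactate handling, which act on what the carriers bring in, 4 were lower and 4 were higher, 26.7% each way against 18.3% and 20.7% of all genes, with a median of -0.03 against 0.15. Pck1, of gluconeogenesis, read -4.62 and -5.16 against -2.83 and -2.36 (-2.30 ± 0.27, adjusted p = 0.00743 by limma). Hk2, the hexokinase of glycolytic cells, read 0.98 and 1.40 against 0.06 and 0.02 (1.15 ± 0.17, adjusted p = 0.0136 by limma), and Khk, ketohexokinase, the first enzyme of fructose use, differed by 0.86 ± 0.13 (adjusted p = 0.0134 by limma).

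Among 16 genes of nucleoside handling, 5 were lower and 3 were higher, 31.2% and 18.8% against 18.3% and 20.7% of all genes, with a median of 0.21 against 0.15. Nt5e, which makes adenosine outside the cell, read -5.80 and -6.44 against -3.92 and -3.60 (-2.36 ± 0.27, adjusted p = 0.00705 by limma). Cda, cytidine deaminase, differed by -2.28 ± 0.36 (adjusted p = 0.0164 by limma). Pnp, purine nucleoside phosphorylase, was higher by 0.66 ± 0.09 (adjusted p = 0.0124 by limma) and Nt5c2, a cytosolic nucleotidase, by 0.55 ± 0.09 (adjusted p = 0.0182 by limma). Pnp2, a close copy of Pnp, was lower by 1.88 on the log2 scale according to its own probe, and probes for such close copies can bind both transcripts.

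Of 9 genes of fatty acid uptake tested, 3 were lower and 3 were higher, 33.3% each way against 18.3% and 20.7% of all genes. Fabp4, the fatty acid binding protein of fat and endothelium, read -1.74 and -1.66 against 3.64 and 3.56 (-5.30 ± 0.09, adjusted p = 0.000499 by limma). Acsl1, which activates fatty acids, differed by -0.56 ± 0.09 (adjusted p = 0.0174 by limma). Acsl3, an acyl-CoA synthetase of lipid droplets, was higher by 1.51 ± 0.12 (adjusted p = 0.00273 by limma) and Got2, also known as a fatty acid binding protein of the plasma membrane, by 0.61 ± 0.10 (adjusted p = 0.0157 by limma).

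Position on the chromosome was shared by some members. Taking carriers whose probes lie within 100 kb of each other on mm9 gave 6 groups with 14 genes. Slc22a8 and Slc22a6 on chromosome 19 were both lower, as were Slc47a1 and Slc47a2 on chromosome 11. Slc16a11 and Slc16a13, on chromosome 11 with probes close together, parted only with the brighter Slc16a13 probe. Slc16a11 differed by -2.36 ± 0.09 (adjusted p = 0.00061 by limma) and Slc16a13 by 0.31 ± 0.14 (adjusted p = 0.153 by limma). That Slc16a13 probe shares a run with a probe of Utp6. A second Slc16a13 probe, with no shared run, gave -0.78 ± 0.09 and was lower in a fit over all probes (adjusted p = 0.00633 by limma). On chromosome 13, Slc17a4 passed and its neighbours Slc17a1 and Slc17a3 did not. On chromosome 11, none of Slc22a4, Slc22a5 and Slc22a21 passed.

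Promoters were read from the RefSeq promoter table of build GRCm38.p6, which holds 92 of the 117 carriers among 27025 genes, as windows of 250 bases before to 50 after the start. The windows were searched on both strands for short motifs, 4 of which are given here. CAAAGTCCA, an HNF4 motif, was in 0 of 92 carriers (95% exact Clopper-Pearson interval up to 3.93%) and 0.555% of all genes. CACGTG, the E-box, was in 10.9% against 8.09%, and ACGTG, the hypoxia factor core, which overlaps every E-box match, in 25.0% against 21.8%. CCAAT was in 38.0% against 41.1%. Of the 30 lower carriers with a window, 7 held ACGTG, and of the 9 higher ones 3 did.

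Slc16a3 is shown because it rose and held 2 ACGTG matches, and the neighbours Slc22a6 and Slc22a8 because they fell together. The 250 bases before the start follow, in gene orientation, with capitals for any match to the motifs above. Slc16a3 lies at chr11:120948817-120949066, Slc22a6 at chr19:8617746-8617995 and Slc22a8 at chr19:8592932-8593181, all 3 on the plus strand of GRCm38.p6.
Slc16a3: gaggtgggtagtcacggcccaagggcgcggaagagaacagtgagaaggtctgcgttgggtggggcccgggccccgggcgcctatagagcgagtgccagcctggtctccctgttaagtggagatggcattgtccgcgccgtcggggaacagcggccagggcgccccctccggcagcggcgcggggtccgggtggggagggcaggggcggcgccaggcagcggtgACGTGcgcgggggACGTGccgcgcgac
Slc22a6: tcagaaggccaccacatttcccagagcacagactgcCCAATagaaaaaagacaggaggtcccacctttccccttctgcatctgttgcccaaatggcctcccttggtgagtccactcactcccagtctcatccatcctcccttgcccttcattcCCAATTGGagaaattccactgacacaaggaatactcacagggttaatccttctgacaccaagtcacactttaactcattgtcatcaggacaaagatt
Slc22a8: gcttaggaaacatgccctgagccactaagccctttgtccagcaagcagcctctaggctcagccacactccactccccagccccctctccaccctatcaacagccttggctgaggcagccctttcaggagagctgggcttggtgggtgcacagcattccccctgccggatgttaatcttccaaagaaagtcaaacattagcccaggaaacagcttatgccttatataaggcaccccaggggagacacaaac

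In Slc16a3 both ACGTG matches lie near the start, at 27 and 14 bases before it. Slc22a6 held CCAAT 214 and 97 bases before the start. A match on the other strand, read as ATTGG, began 94 bases before it and overlapped the one at 97. Slc22a8 held none of the motifs. A match describes letters only, and the lack of one says that these letters are not in this window.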

How the data were processed

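RNA of 4 sorted samples, 2 per group by their titles, was measured on 1-colour Agilent arrays of design 026655. Per the file headers, the authors quantified scans with Agilent Feature Extraction 10.7.3.1 and gave probe positions on mm9. The deposited files hold linear intensity per spot, not normalized between arrays. The deposited series table holds the same intensity: 99.8% of probes lay within 0.01 log2 of the scanner values.

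Spots of a probe were averaged, leaving out controls and outlier flags, and log2 processed signal minus the array's 75th percentile was tested with limma 3.58.1 in R 4.3.3 (lmFit, eBayes), two-sided, with Benjamini-Hochberg adjustment. The brightest probe kept stood for a gene. Symbols were updated through accessions to RefSeq; Slc22a9 of the file became Slc22a19. Alternatives covered scaling, background, filters, probes, names, variance, pairing and leaving out each array.

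Carriers with full statistics were a preset group of well-known members, the 10 largest differences in each direction (by bound where there is one), the largest per family, called members whose probes disagree, and the 2 largest per list in each direction. Members and lists were chosen with earlier results of these data known. All arrays share 1 slide and 1 scan time, so no batch could be fitted. The description field speaks of tamoxifen and the cell type field calls both groups nephron progenitors; the titles were followed here, and treatment with tamoxifen was not assumed. A few genes that this rule names are not reported here.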

Additional observations from a re-analysis of the deposited data

How the results depend on the processing

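Of the 52 carrier calls, 31 (27 lower and 4 higher) were kept under each alternative in which the gene was tested, and none changed direction. Carriers lower numbered 41, with 31 to 44 under other settings and 29 to 49 without 1 array. Carriers higher numbered 11, and 18 with the array median as the centre, 7 without the filter on dim probes and 4 to 6 without 1 array. The array median as the centre raised the median of all genes from 0.15 to 0.41. Over all genes, 4989 were higher and 4413 lower; the array median gave 10810 and 3767, no filter gave 2618 higher, and leaving out 1 array 1320 to 2163 higher.

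The carrier median of -0.90 was -0.64 with quantile normalization, -0.65 with the array median, -0.31 with normexp, -0.33 with normexp and quantile normalization, -0.41 without a filter (more genes tested) and -0.32 over genes well above background on all 4 arrays (fewer genes), and -1.01 to -0.45 without 1 array; the median of all genes stayed between 0.11 and 0.41. Other causes were not tested. Leaving out an array leaves a group with 1, which is assumed to vary like the other group.

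With the replicate number as a block, 43 carriers were lower and 11 higher. Same-numbered arrays deviated together with a correlation of 0.22 over all genes and -0.13 over the carriers, and with 2 pairs the numbers do not establish pairing. Signal over background limits 8 carriers in 1 group to bounds or no fold, besides Slc5a7. In promoters, counting only bases before the start moved the share of carriers with ACGTG from 25.0% to 18.5%. The share of all genes moved from 21.8% to 18.5%, so the carriers then stood at the share of all genes.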
